A study of Danio rerio with 18 samples.

Results

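The larval and adult globin genes of zebrafish were followed through the first month of life in fish carrying the hypomorphic stl297 allele of scospondin. The genes were taken by name: every row of the gene count table whose name starts with hbaa, hbba, hbae or hbbe. The rule found 7 of 28870 rows. One of them is an adult globin (hbaa1) and 6 are larval (hbae1, hbae3, hbbe1.1, hbbe1.2, hbbe2 and hbbe3); no row was named hbba, and the adult beta globin is carried by the table as ba1, which is described beside the 7. RNA came from whole bodies, with 3 libraries in each of 6 groups: maternal zygotic stl297 mutants (MZ below) at 5, 15 and 30 days post fertilisation (dpf), and stl297 heterozygotes (het below) at the same ages. Every group carries the stl297 allele, in 2 copies or in 1, the labels name no treatment, and no wild type was sequenced. The column names of the count table call the MZ fish homoz and the het fish ox, and neither they nor the labels give the crosses, so the allele, the mother's genotype and the family cannot be told apart. The labels do not say how many fish went into a library or whether libraries came from separate clutches, so the p-values measure the spread between libraries, which may be technical.

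Haemoglobin, the oxygen carrier of red cells, is built of a pair of alpha-type and a pair of beta-type chains around haem. Zebrafish replace the chains of the embryo and larva with adult ones as they mature. The alpha and beta genes stand side by side in zebrafish rather than on separate chromosomes, in a major cluster that holds larval and adult genes and a minor cluster that holds embryonic and larval genes only. In the letters of the names, a or b after hb gives the chain, and a or e after that gives adult or embryonic and larval.

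In the RefSeq annotation of assembly GRCz12tu, used here for names and neighbours only, the major cluster lies on chromosome 3. Its order runs from the adult genes (hbaa2, hbba2, ba1l, hbaa1, hbba1 and si:ch211-5k11.8) to the larval genes (hbbe1.1, hbae1.1, hbbe1.2, hbae1.2, hbbe1.3, hbae1.3 and hbae3), with 0 other genes between them. The minor cluster on chromosome 12 holds hbae4, hbbe3, hbbe2 and hbae5, with 2 other genes between hbbe3 and hbbe2. RefSeq synonyms tie the row hbae1 to hbae1.1 and the row ba1 to hbba1. They also tie zgc:92880 to hbba2, si:ch211-5k11.6 to hbaa2, si:xx-by187g17.1 to si:ch211-5k11.8 and si:ch211-5k11.12 to hbbe1.3. The row si:ch211-5k11.2 carries a synonym of both hbae1.2 and hbae1.3, and the row hbz a synonym of both hbae4 and hbae5, so neither can be given to 1 gene. How alike in sequence the numbered hbae1 and hbbe1 copies are was not checked. How reads that fit several copies were counted is not given in the sources used here. The split of counts between hbae1 and its copies, and between hbbe1.2 and its copies, is therefore uncertain.

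Libraries held 10178388 to 17141819 counts. Levels are given as CPM, counts relative to the size of the library, after scaling by the trimmed mean of M-values (TMM), which makes libraries comparable gene by gene. Levels of different genes are compared as CPM per kilobase of the row's length. Scospondin, the mutated gene, had 1 to 16 counts in every library and was not called between genotypes at any age (log2 fold change 0.51, 1.57 and -0.22 at 5, 15 and 30 dpf), so its level gives no check of the labels. The erythrocyte label was checked on 14 of 15 markers found in the table, all of which passed the filter on low counts in every comparison.

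Globins took up 0.122% ± 0.0129 of all counts in MZ and 0.1202% ± 0.00226 in het fish at 5 dpf (SD, n = 3 each, as for every group below). At 15 dpf the shares were 0.130% ± 0.0302 in MZ and 0.124% ± 0.0369 in het fish, and at 30 dpf 0.182% ± 0.0250 in MZ and 0.177% ± 0.00869 in het fish. The 2 genotypes overlapped at each age. With the globin rows under other names added, the share came to 0.143%, 0.172% and 0.397% in MZ fish at the 3 ages, and to 0.138%, 0.162% and 0.432% in het fish. In whole bodies, fewer red cells and less globin RNA per red cell cannot be told apart.

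**Figure D1:**
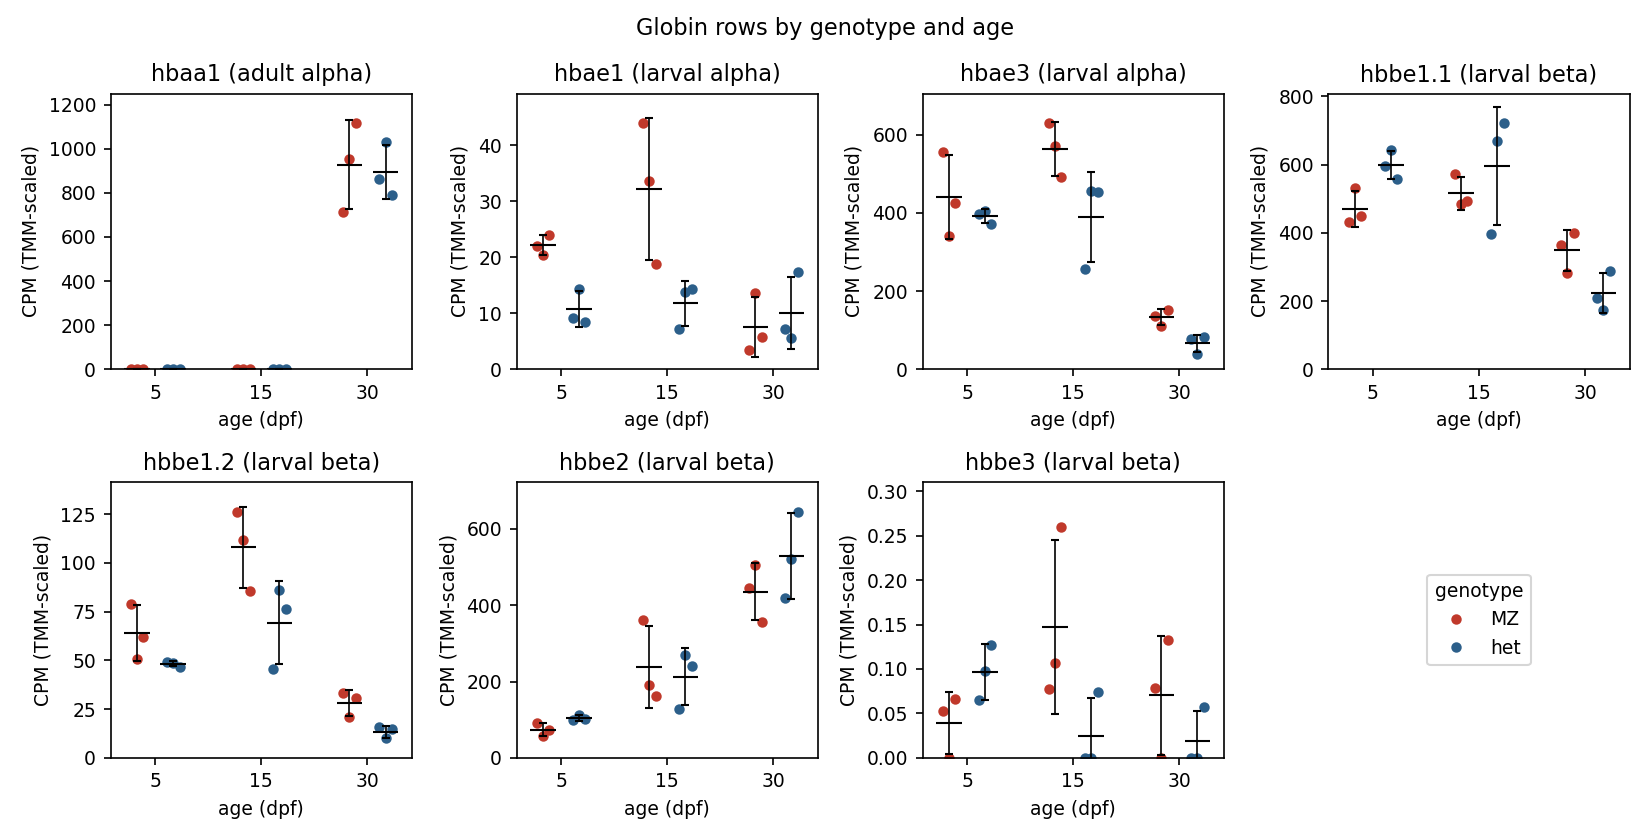
TMM-scaled CPM of the 7 globin rows (one panel each, vertical axes from 0) against age in dpf. Points are libraries, MZ left of het at each age, and black bars are the mean ± SD of 3 libraries; hbaa1 is near 0 until 30 dpf, hbae3, hbbe1.1 and hbbe1.2 are lowest at 30 dpf, the mean of hbbe2 is highest at 30 dpf, and hbbe3 stays at 3 counts or fewer.

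The adult alpha globin hbaa1 was all but silent until 15 dpf and among the most counted globins at 30 dpf. Its counts at 5 dpf were 10, 0 and 5 in MZ and 3, 2 and 4 in het libraries. At 15 dpf they were 0, 0 and 0 in MZ and 0, 0 and 1 in het libraries. At 30 dpf they reached 9069, 12662 and 16785 in MZ and 12006, 15744 and 13734 in het libraries. Every 30 dpf library was far above every younger one, and the 2 genotypes overlapped at each age. Against a floor of 3 counts per library, hbaa1 was at least 3438-fold higher at 30 than at 15 dpf in MZ fish and at least 4018-fold higher in het fish.

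The genotypes did not differ detectably in hbaa1 at 30 dpf. The CPM values were 714, 954 and 1117 in MZ and 863, 1029 and 789 in het fish, a log2 fold change of 0.08 ± 0.17 (SE; edgeR quasi-likelihood test, adjusted p = 0.807). The 95% interval of that change ran from -0.24 to 0.41. Its sign rested on single libraries: it was -0.07 without MZ replicate 3 and -0.0017 without het replicate 3. At 5 and 15 dpf hbaa1 did not pass the filter on low counts, and its share of all globin counts was at most 0.0447% in any of those 12 libraries. In the 5 libraries at 15 dpf without a count, the 3 counts that a 0 allows correspond to a share of up to 0.0133% to 0.0250% of the globin counts.

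The adult beta globin ba1 moved as its neighbour hbaa1 did. Its counts at 30 dpf were 11604, 15836 and 21817 in MZ and 16268, 21545 and 18813 in het libraries, against 0 to 2 in any library at 5 or 15 dpf. This was at least 4393-fold higher than at 15 dpf in MZ and at least 5483-fold higher in het fish. Counts of ba1 per count of hbaa1 were 1.28 ± 0.02 in MZ and 1.36 ± 0.01 in het fish at 30 dpf. The 3 MZ values lay between 1.25 and 1.3 and the 3 het values between 1.35 and 1.37. Neither ba1 (log2 fold change -0.01 ± 0.17, adjusted p = 0.973) nor si:xx-by187g17.1 (-0.42 ± 0.16, adjusted p = 0.157), the adult row next along the cluster, was called between genotypes in the edgeR test.

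The 3 adult rows before hbaa1 in the cluster had fewer counts at 30 dpf than hbaa1, ba1 and si:xx-by187g17.1, spread unevenly over the libraries. Counts of ba1l, an adult beta-like row, were 267, 140 and 63 in MZ and 669, 1258 and 332 in het libraries at 30 dpf, and 0 in every younger library. Scaled for depth these were 21.0, 10.5 and 4.19 CPM in MZ and 48.1, 82.2 and 19.1 CPM in het fish. The genotypes overlapped, since MZ replicate 1 stood above het replicate 3, and the log2 fold change of -2.04 ± 0.58 was not called (edgeR adjusted p = 0.0836). Counts of zgc:92880 (hbba2) were 13, 23 and 358 in MZ and 75, 45 and 27 in het libraries. Counts of its neighbour si:ch211-5k11.6 (hbaa2) were 2, 9 and 113 in MZ and 19, 3 and 11 in het libraries. The same library, MZ replicate 3, was the highest for both, and the lowest of the 6 for ba1l.

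**Figure D2:**
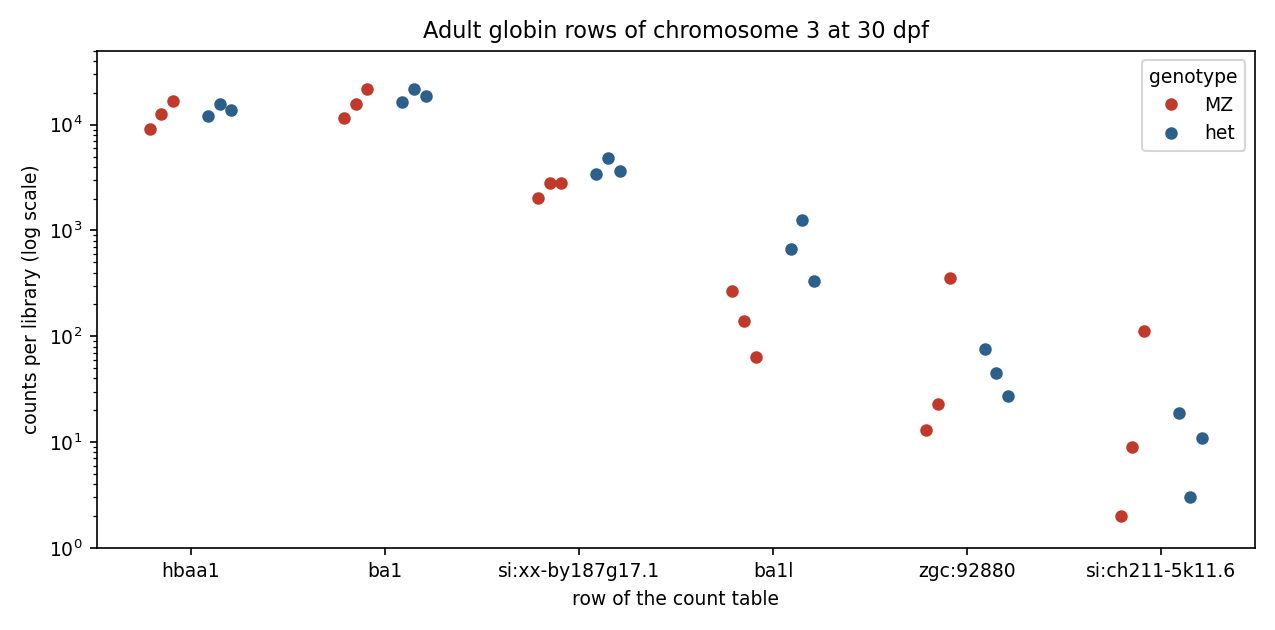
Counts per library (logarithmic axis) on the 6 adult globin rows of chromosome 3 at 30 dpf, with hbaa1 first and the other rows ordered by mean level. Each point is a library, MZ left of het, in replicate order; hbaa1 and ba1 have 9069 counts or more in all 6 libraries, counts are not scaled for depth, the genotypes overlap in ba1l once they are, and zgc:92880 and si:ch211-5k11.6 are highest in MZ replicate 3.

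Globin counts were almost wholly larval until 15 dpf and mixed at 30 dpf. At 30 dpf hbaa1 made up 42.1%, 50.6% and 54.2% of the counts on the 7 rows in MZ and 54.2%, 57.8% and 42.9% in het libraries, or 48.9% ± 6.20 in MZ and 51.7% ± 7.76 in het fish. The exact binomial 95% interval ran from 41.4% to 42.8% for the lowest library, MZ replicate 1, and from 57.2% to 58.4% for the highest, het replicate 2, and covers counting error only. With the globin rows under other names added, the adult share was 56.1% ± 6.97 in MZ and 57.1% ± 7.26 in het fish at 30 dpf. Leaving the chromosome 12 rows and the unplaced row HBZ out of that sum, it was 75.3% ± 5.35 in MZ and 83.7% ± 5.25 in het fish. The genotypes overlapped by a narrow margin on this last measure, with 69.3% to 79.4% in MZ and 78.5% to 89.0% in het libraries.

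**Figure D3:**
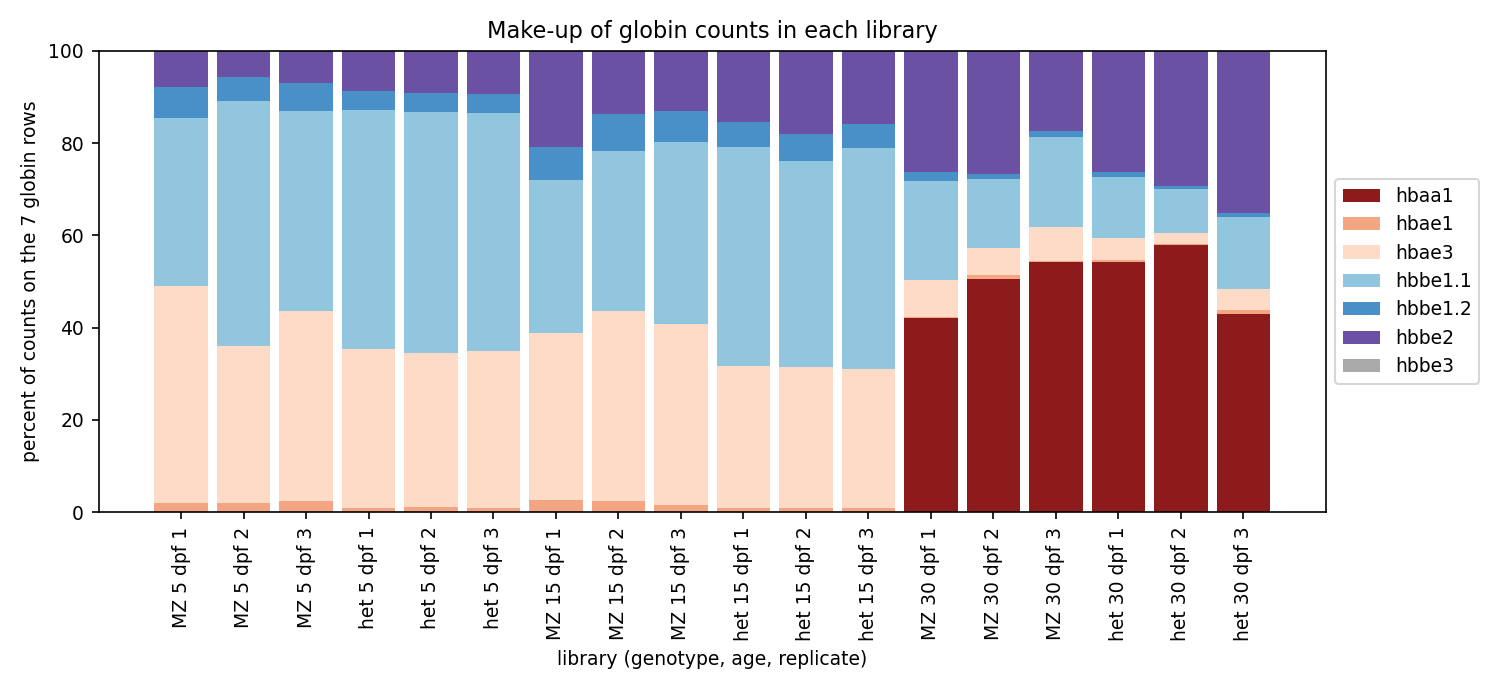
Share of each globin row in the counts on the 7 rows (percent, vertical axis) for every library, grouped by age with MZ left of het. Each bar is a library; hbaa1 appears only in the 30 dpf bars at this scale, where it takes 42.1% to 57.8%, and the mean share of hbbe2 is larger at each later age in both genotypes, with 1 MZ library at 15 dpf above the lowest at 30 dpf.

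The order of levels per kilobase among the 7 rows changed with age. At 5 dpf the larval alpha globin hbae3 led in both genotypes, at 640.2 CPM per kilobase in MZ and 569 in het fish, and the larval beta globin hbbe1.1 came next, at 439.6 in MZ and 560.3 in het fish. The libraries of these leading rows overlapped in both genotypes. Their order rests on row length, 688 bases for hbae3 and 1068 for hbbe1.1. A row's length may cover more than 1 copy, which was not checked. In CPM hbbe1.1 led at 5 dpf, at 470 against 440 in MZ and 598 against 391 in het fish. Below the pair per kilobase stood hbbe2 (125 in MZ and 177 in het fish), hbbe1.2 (93.6 in MZ and 70.5 in het fish) and hbae1 (30.4 in MZ and 14.7 in het fish). The ranges of hbbe2 and hbbe1.2 overlapped in MZ but not in het fish. At 15 dpf the order per kilobase was the same. There hbae3 stood clear of hbbe1.1 in MZ fish (821 against 483 CPM per kilobase) but not in het fish (566 against 558). In CPM the MZ libraries of the pair overlapped at 15 dpf, at 492 to 630 for hbae3 and 483 to 571 for hbbe1.1. At 30 dpf hbaa1 led the 7 rows, at 1028 in MZ and 989 in het fish, below the 1219.9 in MZ and 1254 in het fish of ba1, which the name rule leaves out, with hbbe2 next at 738 in MZ and 896 in het fish and the ranges of the pair overlapping in both genotypes. The rows hbbe1.1 (326 in MZ and 209.6 in het fish), hbae3 (194 and 96.3) and hbbe1.2 (41.2 and 19.7) followed without overlap between neighbours. Next came hbae1, with 10.5 in MZ and 13.8 in het fish, whose range overlapped that of hbbe1.2 in het fish, and hbbe3 was the lowest.

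The larval row hbbe3 of chromosome 12 had 0 to 3 counts in every library. It passed the filter in none of the comparisons, and at this depth nothing can be said of its changes.

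Between 5 and 15 dpf the beta rows hbbe1.2 and hbbe2 rose in both genotypes, and the other 3 members tested were not called. In MZ fish 2 of the 5 members tested were called, both higher, where 57.0% of all tested genes were called (27.7% higher and 29.3% lower). In het fish 2 of 5 were called, again both higher, where 39.7% of all genes were (19.7% higher and 20.0% lower). Taken over both directions, the members called were below the share of all genes in MZ fish and near it in het fish. Whether the members called higher exceed the share of all genes called higher was not tested. CPM of hbbe2 was 360.4, 189.7 and 162 at 15 dpf, against 91.7, 57.4 and 72.2 at 5 dpf in MZ fish, a log2 fold change of 1.66 ± 0.25 (edgeR adjusted p = 7.54e-05). In het fish it was 129, 269.6 and 239.6 at 15 dpf, against 99.3, 113 and 101 at 5 dpf (1.04 ± 0.19, adjusted p = 0.000574). The 2 ages did not overlap in either genotype. The log2 fold change of hbbe1.2 was 0.73 ± 0.16 in MZ (adjusted p = 0.00184) and 0.53 ± 0.17 in het fish (adjusted p = 0.0209). In CPM of hbbe1.2 the het ages overlapped, at 45.5 to 86.0 at 15 dpf and 46.8 to 48.9 at 5 dpf, and the MZ ages did not. The het call of hbbe1.2 was lost without het 5 dpf replicate 1 (log2 fold change 0.54, adjusted p = 0.0644) or replicate 3 (0.52, 0.0518), and without het 15 dpf replicate 2 (0.36, 0.115) or replicate 3 (0.45, 0.0738). In MZ fish hbae1 (0.52 ± 0.22, adjusted p = 0.06), hbae3 (0.34 ± 0.15, 0.0736) and hbbe1.1 (0.11 ± 0.12, 0.428) were not called. In het fish hbae1 (0.17), hbae3 (0.005) and hbbe1.1 (0.006) stood near 0, with adjusted p-values of 0.617 to 0.985. The chromosome 3 copies under other names were called higher in both genotypes. The row si:ch211-5k11.2 (hbae1.2, hbae1.3 or both) rose by 0.89 ± 0.17 in MZ (edgeR adjusted p = 0.00053) and by 0.95 ± 0.21 in het fish (0.00188). The row si:ch211-5k11.12 (hbbe1.3) rose by 1.13 ± 0.13 in MZ (edgeR adjusted p = 1.07e-05) and by 0.76 ± 0.19 in het fish (0.00477).

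Between 15 and 30 dpf hbae3, hbbe1.1 and hbbe1.2 of chromosome 3 fell in both genotypes, and hbaa1 and hbbe2 rose. In MZ fish all 6 members tested were called, 2 higher and 4 lower, where 19.3% of all genes were called (10.2% higher and 9.05% lower). In het fish 5 of 6 were called, 2 higher and 3 lower, where 21.5% of all genes were called (10.6% higher and 10.9% lower). The row hbaa1, counted higher in both genotypes, passed the filter on low counts through its 30 dpf libraries alone. Its call was therefore fixed by its entry to the test and adds nothing against these shares. CPM of hbae3 fell to 136, 112 and 152 at 30 dpf in MZ fish, against 630.1, 572 and 492 at 15 dpf (log2 fold change -2.03 ± 0.15, edgeR adjusted p = 7.81e-06). In het fish it fell to 77.0, 40.1 and 81.7, against 258, 457 and 454 at 15 dpf (-2.55 ± 0.27, adjusted p = 6.32e-05). The ages were far apart in every library. The beta row hbbe1.2 fell by 1.88 ± 0.19 on the log2 scale in MZ and by 2.36 ± 0.23 in het fish (adjusted p = 7.59e-05 in MZ and 3.55e-05 in het fish).

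The beta row hbbe1.1, which led the beta rows per kilobase at 5 and 15 dpf, had smaller changes. Its CPM was 364, 282 and 399 at 30 dpf, against 571, 483 and 493 at 15 dpf in MZ fish (log2 fold change -0.51 ± 0.14, adjusted p = 0.0273). In het fish it was 210.1, 173 and 289, against 398, 668 and 721 (-1.41 ± 0.22, adjusted p = 0.000944). No 30 dpf library reached a 15 dpf library of its genotype. The MZ call of hbbe1.1 held without MZ 30 dpf replicate 3 and was lost without any of the other 5 libraries. The log2 fold change was then -0.43, -0.55 and -0.54 without MZ 15 dpf replicates 1, 2 and 3 (adjusted p = 0.0825, 0.0618 and 0.0584). Without MZ 30 dpf replicates 1 and 2 it was -0.54 and -0.38 (adjusted p = 0.0536 and 0.0875).

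The small alpha row hbae1 fell in MZ fish, to 3.38, 13.6 and 5.85 CPM at 30 dpf, against 43.9, 33.6 and 18.8 at 15 dpf (log2 fold change -2.02 ± 0.42, edgeR adjusted p = 0.00685). In het fish it had 7.19, 5.62 and 17.3 CPM at 30 dpf and 7.19, 13.8 and 14.4 at 15 dpf, and was not called (-0.21 ± 0.37, adjusted p = 0.734). The het value was -0.87 (adjusted p = 0.0425) without het 30 dpf replicate 3, the library with 17.3 CPM, and 0.08 without het 30 dpf replicate 2.

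Although named larval, hbbe2 had a higher mean at each later age. Its CPM at 30 dpf was 445, 504 and 357, against 360.4, 189.7 and 162 at 15 dpf in MZ fish (log2 fold change 0.93 ± 0.26, edgeR adjusted p = 0.028). In het fish it was 419, 522 and 645 against 129, 269.6 and 239.6 (1.32 ± 0.23, adjusted p = 0.00212). The MZ ages overlapped, since MZ 15 dpf replicate 1 stood just above the lowest MZ library at 30 dpf, and the het ages did not. The MZ call was lost without MZ 15 dpf replicate 2 (0.79, adjusted p = 0.111) or replicate 3 (0.72, 0.0922) and without MZ 30 dpf replicate 1 (0.91, 0.0578). Without MZ 15 dpf replicate 1 the change was 1.37 (adjusted p = 0.000727). Of the counts on the 6 larval rows, hbbe2 took 6.84% ± 1.02, 15.8% ± 4.4 and 45.7% ± 8.2 in MZ fish at 5, 15 and 30 dpf, and 9.03% ± 0.35, 16.4% ± 1.4 and 62.9% ± 6.1 in het fish.

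The chromosome 12 alpha row hbz, which may be hbae4, hbae5 or both, was called higher with hbbe2 at both steps in both genotypes. From 5 to 15 dpf its log2 fold change was 4.49 ± 0.67 in MZ and 4.08 ± 0.31 in het fish, and from 15 to 30 dpf it was 2.57 ± 0.60 in MZ and 2.99 ± 0.30 in het fish (edgeR adjusted p = 0.0127 or less). Counts of hbz at 15 dpf were 3034, 434 and 347 in MZ and 714, 1815 and 1566 in het libraries. The library with 3034, MZ replicate 1, was also the highest MZ library for hbbe2. Counts of hbz per count of hbbe2 were 0.058 ± 0.024, 0.36 ± 0.25 and 1.35 ± 0.16 in MZ fish at the 3 ages, and 0.059 ± 0.004, 0.47 ± 0.07 and 1.55 ± 0.05 in het fish. The changes of the chromosome 3 copies under other names from 15 to 30 dpf were all negative, and not all of them were called. Whether they differed from those of the larval rows beside them was not tested. The row si:ch211-5k11.12 (hbbe1.3) fell from 15 to 30 dpf, with a log2 fold change of -1.22 ± 0.18 in MZ and -1.67 ± 0.24 in het fish. The row si:ch211-5k11.2 (hbae1.2, hbae1.3 or both) had -0.32 ± 0.17 in MZ fish, which was not called (edgeR adjusted p = 0.218). In het fish that row fell by 0.71 ± 0.22 (adjusted p = 0.0419).

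At 5 dpf MZ fish had more of 2 larval rows and less of another than het fish. Of 5 members tested 3 were called, 2 higher and 1 lower, where 40.7% of all genes were called (21.1% higher and 19.6% lower). The hbae1 CPM was 22.1, 20.3 and 23.9 in MZ and 9.23, 14.4 and 8.52 in het fish (log2 fold change 1.15 ± 0.17, a 2.21-fold difference, edgeR adjusted p = 0.000112). The genotypes did not overlap, and the call held in each of the 6 fits that left out a library. The hbbe1.2 CPM was 79.0, 50.9 and 62.2 in MZ and 48.9, 48.9 and 46.8 in het fish (0.49 ± 0.13, adjusted p = 0.00795). MZ replicate 2 was close to the het libraries, and this call too held in each of 6 such fits. In a joint fit of all libraries hbae1 was still called (1.07, adjusted p = 0.0464), and hbbe1.2 was not (0.42, adjusted p = 0.136). The chromosome 3 copies under other names were not called at 5 dpf. The row si:ch211-5k11.2 (hbae1.2, hbae1.3 or both) had 0.35 ± 0.14 (edgeR adjusted p = 0.0594). Its mean CPM, 120 in MZ and 99.5 in het fish, was above that of hbae1. The row si:ch211-5k11.12 (hbbe1.3) had -0.04 ± 0.12 (edgeR adjusted p = 0.812).

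The lower row was hbbe2, with 91.7, 57.4 and 72.2 CPM in MZ and 99.3, 113 and 101 in het fish at 5 dpf (log2 fold change -0.42 ± 0.13, edgeR adjusted p = 0.0216). The genotypes did not overlap. This call was lost without MZ replicate 2 (-0.28, adjusted p = 0.101), MZ replicate 3 (-0.41, 0.0762) or het replicate 2 (-0.37, 0.0647), and in the joint fit (-0.49, 0.160). The 2 leading rows were not called, hbae3 at 0.24 ± 0.14 (adjusted p = 0.169) and hbbe1.1 at -0.27 ± 0.11 (adjusted p = 0.0568). All 3 MZ libraries were below all 3 het libraries in hbbe1.1, at 430.2, 529.9 and 448 CPM in MZ and 595, 642 and 558 in het fish. CPM of hbae3 was 555, 340.2 and 426 in MZ and 397, 406 and 371 in het fish, with MZ replicate 2 below and the other MZ libraries above all het libraries. The change of hbae3 was 0.05 without MZ replicate 1 and 0.39 (adjusted p = 0.0264) without MZ replicate 2.

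At 15 dpf 1 of 5 members tested was called, hbae1, where 0.891% of all genes were called (0.445% higher and 0.445% lower). It was 2.73-fold higher in MZ fish, with 43.9, 33.6 and 18.8 CPM in MZ and 7.19, 13.8 and 14.4 in het fish (log2 fold change 1.45 ± 0.29, edgeR adjusted p = 0.0436). The genotypes did not overlap. The call held without MZ replicate 1 (1.15, adjusted p = 0.0314) and was lost without any of the other 5 libraries. The log2 fold change was then 1.42 and 1.73 without MZ replicates 2 and 3 (adjusted p = 0.0865 and 0.0562), and 1.19, 1.58 and 1.62 without het replicates 1, 2 and 3 (adjusted p = 0.141, 0.147 and 0.0526). The values of hbae3 (0.53 ± 0.18, adjusted p = 0.149) and hbbe1.2 (0.64 ± 0.20, 0.124) were not called. Those of hbbe1.1 (-0.21 ± 0.18, adjusted p = 0.547) and hbbe2 (0.16 ± 0.28, 0.803) were not either, and hbbe2 had -0.27 without MZ replicate 1 and -0.10 without het replicate 1. Nor were the copies under other names, si:ch211-5k11.2 (0.25 ± 0.23, edgeR adjusted p = 0.589) and si:ch211-5k11.12 (0.29 ± 0.20, edgeR adjusted p = 0.456).

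One library of each genotype stood apart at 15 dpf, in opposite directions. MZ replicate 1 was the highest MZ library for each of the 5 tested globin rows, with 1732 CPM over the 7 rows in all, where the other 2 MZ libraries had 1391 and 1252. It had 41.6 CPM of slc4a1a, the anion exchanger of the red cell membrane, where the others had 27.2 and 27.3. It had 20.6 CPM of alas2, the first enzyme of erythroid haem synthesis, where both others had 10.9. The erythrocyte markers did not all follow, and it was the lowest MZ library for 4 of the 14. Its summed CPM over the 14 markers, 1552, lay between the 1547 and 1606 of the others. Without MZ replicate 1 the log2 fold change between genotypes was 0.45 for hbae3, 0.51 for hbbe1.2 and -0.29 for hbbe1.1, none of them called. Het replicate 1 was the lowest het library for each of the 5 tested globin rows, with 836 CPM over the 7 rows in all, where the other 2 het libraries had 1494 and 1506. It was also the lowest het library for 10 of the 14 erythrocyte markers. It had 18.2 CPM of slc4a1a, where the others had 35.2 and 45.0, and 8.24 CPM of alas2, where the others had 16.1 and 16.8. Without that library the same changes were 0.31 for hbae3, 0.41 for hbbe1.2 and -0.43 for hbbe1.1, none of them called.

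At 30 dpf 2 of 6 members tested were called, both higher in MZ fish, where 3.30% of all genes were called (1.11% higher and 2.20% lower). The hbae3 CPM was 136, 112 and 152 in MZ and 77.0, 40.1 and 81.7 in het fish (log2 fold change 1.04 ± 0.23, a 2.05-fold difference, edgeR adjusted p = 0.0482). The hbbe1.2 CPM was 33.1, 20.9 and 30.5 in MZ and 15.6, 9.93 and 14.9 in het fish (1.09 ± 0.21, a 2.13-fold difference, adjusted p = 0.0349). Neither row overlapped between genotypes. These calls sat at the threshold and were sensitive to single libraries. For hbae3 the change stayed between 0.76 and 1.21 and was called in 0 of 6 fits that left out a library, with adjusted p-values of 0.148, 0.0536 and 0.0688 without MZ replicates 1, 2 and 3 and of 0.0882, 0.0815 and 0.104 without het replicates 1, 2 and 3. For hbbe1.2 it stayed between 0.90 and 1.26. It was lost without MZ replicate 1 (0.93, adjusted p = 0.134) and without het replicates 1, 2 and 3 (1.19, 0.90 and 1.17, adjusted p = 0.0623, 0.105 and 0.105).

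The other larval rows at 30 dpf were not called. The hbbe1.1 CPM was 364, 282 and 399 in MZ and 210.1, 173 and 289 in het fish (log2 fold change 0.67 ± 0.19, edgeR adjusted p = 0.0844), with MZ replicate 2 just under het replicate 3. For hbbe2 the change was -0.25 ± 0.17 (adjusted p = 0.425). For hbae1 it was -0.38 ± 0.51 (adjusted p = 0.699), and 0.28 without het replicate 3. Under another name, si:ch211-5k11.2 (hbae1.2, hbae1.3 or both) was called higher in MZ fish (0.62 ± 0.14, edgeR adjusted p = 0.0488). Its CPM was 205, 151 and 171 in MZ and 119.8, 98.1 and 131 in het fish. The row si:ch211-5k11.12 (hbbe1.3) was not called (0.71 ± 0.23, edgeR adjusted p = 0.111).

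**Figure D4:**
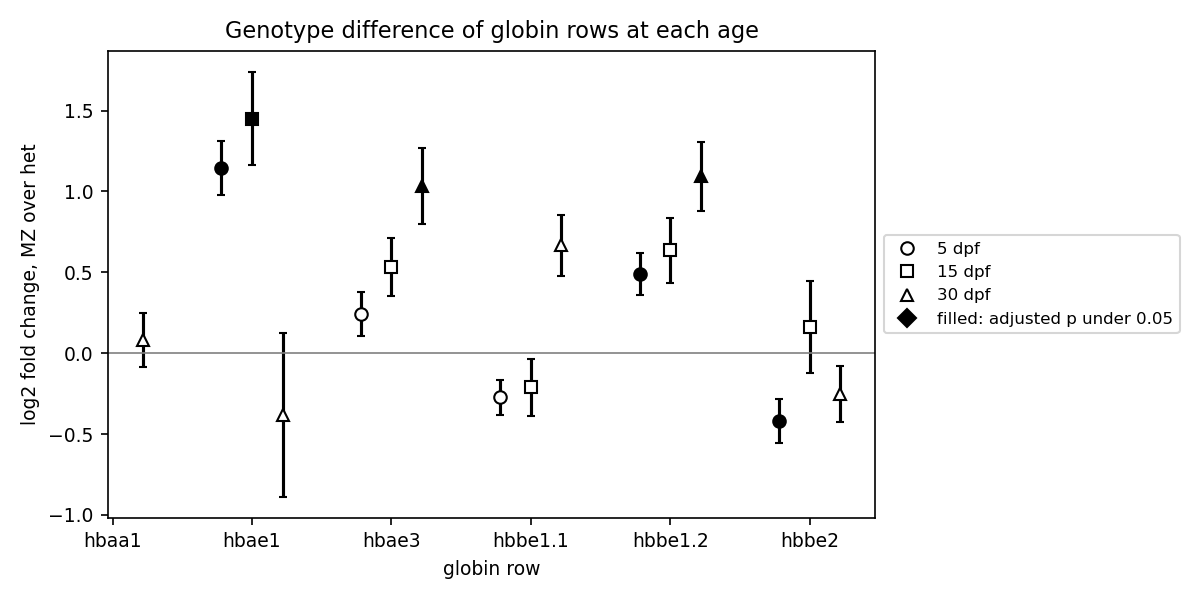
Log2 fold change of MZ over het (vertical axis) for the 6 globin rows that passed the filter on low counts, at 5 dpf (circles), 15 dpf (squares) and 30 dpf (triangles). Whiskers are ± 1 SE from edgeR over 6 libraries and filled symbols have an adjusted p under 0.05; hbae1 is called at 5 and 15 dpf, hbbe1.2 at 5 and 30 dpf, hbae3 at 30 dpf and hbbe2 at 5 dpf, and hbaa1 was tested only at 30 dpf.

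Whether the genotype difference itself changed with age was tested over all 18 libraries. Of 6 members 2 were called, hbbe1.1 (edgeR adjusted p = 0.0136) and hbae1 (adjusted p = 0.0418), the same share as the 33.3% of all genes called. For hbbe1.1 the MZ over het change was -0.27 at 5 dpf, -0.21 at 15 dpf and 0.67 at 30 dpf. For hbae1 it was 1.15, 1.45 and -0.38 at the 3 ages. The step from 15 to 30 dpf differed between MZ and het fish by 0.84 ± 0.27 for hbbe1.1 (adjusted p = 0.0823) and by -1.86 ± 0.59 for hbae1 (adjusted p = 0.0816), and neither was called, where 3.86% of all genes were (1.34% higher and 2.52% lower). Nor was any member called for the step from 5 to 15 dpf, where 18.5% of all genes were called (6.46% lower, and the others higher). The change with age of the genotype difference in hbae3, hbbe1.2, hbbe2 and hbaa1 was not called (adjusted p = 0.121, 0.244, 0.349 and 0.650). For hbaa1, which entered the fit through its 30 dpf counts alone, the step differences were -2.45 ± 2.39 and 1.96 ± 2.13. Its missing call, and its place among the 6 members, therefore say little. Leaving out each library in turn ended the interaction call of hbae1 in 11 of 18 fits, with an adjusted p up to 0.254 without het 30 dpf replicate 3, and that of hbbe1.1 in 1 of 18, without het 30 dpf replicate 2 (adjusted p = 0.0505). The genotype and age comparisons share libraries, so their values are not independent.

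Ratios within a library do not depend on how libraries are scaled, and are given without a test. Counts of hbae3 per count of hbbe1.1 at 15 dpf were 1.103, 1.18 and 1.00 in MZ and 0.648, 0.684 and 0.629 in het fish. Het replicate 1, low in both rows, was not apart in this ratio. At 5 dpf the ratio was 1.29, 0.642 and 0.950 in MZ and 0.666, 0.633 and 0.665 in het fish, so MZ replicate 2 lay among the het libraries. At 30 dpf it was 0.372, 0.396 and 0.382 in MZ and 0.366, 0.232 and 0.283 in het fish. Counts of hbbe1.2 per count of hbbe1.1 were 0.184, 0.0960 and 0.139 in MZ and 0.0822, 0.0762 and 0.0838 in het fish at 5 dpf. At 15 dpf they were 0.221, 0.231 and 0.174 in MZ and 0.115, 0.129 and 0.106 in het fish. At 30 dpf the genotypes overlapped by a narrow margin, at 0.0909, 0.0741 and 0.0763 in MZ and 0.0742, 0.0575 and 0.0515 in het fish. Counts of hbbe2 per count of hbbe1.1 at 30 dpf were 1.22, 1.79 and 0.894 in MZ and 2.00, 3.02 and 2.23 in het fish, without overlap. At the younger ages this ratio overlapped between genotypes, at 0.161 ± 0.0524 in MZ and 0.174 ± 0.0068 in het fish at 5 dpf, and 0.451 ± 0.159 in MZ and 0.353 ± 0.0439 in het fish at 15 dpf.

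**Figure D5:**
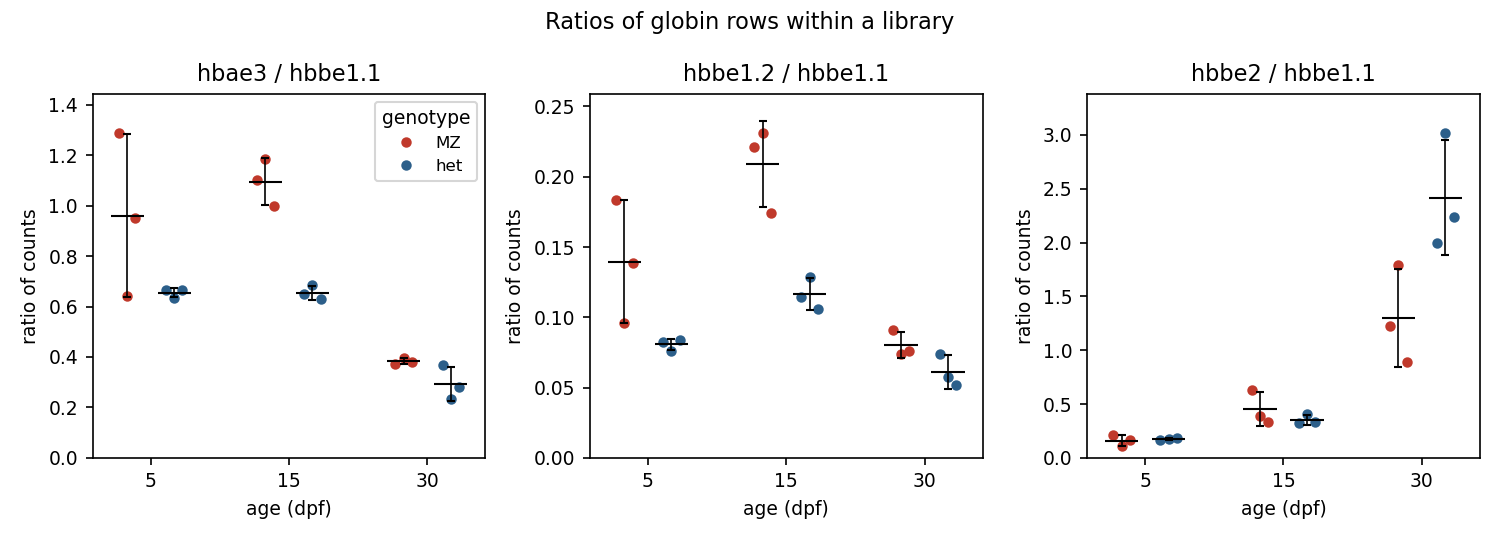
Ratio of counts within each library of hbae3, hbbe1.2 and hbbe2 to hbbe1.1 (one panel each, vertical axes from 0) against age in dpf. Points are libraries, MZ left of het, with mean ± SD of 3. MZ and het libraries do not overlap at 15 dpf or, by a narrow margin, at 30 dpf in the first panel. They do not overlap at 5 or 15 dpf in the second panel, or at 30 dpf in the third.

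Markers of the red cell were compared between 15 and 30 dpf. Of the 14 erythrocyte markers, 8 were called from 15 to 30 dpf in MZ fish, 7 higher and 1 lower, with a median log2 fold change of 0.72 over the 14, where the median of all genes was 0.00 and 19.3% of all genes were called. In het fish 11 were called, 10 higher and 1 lower, with a median of 0.81, where the median of all genes was 0.01 and 21.5% were called. The largest rises were those of alas2 (1.78 ± 0.23 in MZ and 2.00 ± 0.20 in het fish), cahz, the red cell carbonic anhydrase (1.43 ± 0.16 and 1.69 ± 0.16), and epb41b, a protein 4.1 of the membrane skeleton (1.32 ± 0.22 and 1.84 ± 0.18). Among the markers that fell was rhag, a Rhesus-associated gas channel (-0.58 in MZ and -0.88 in het fish). In MZ fish prdx2 had 899, 803 and 837 CPM at 30 dpf, against 1033, 1113 and 1176 at 15 dpf. In het fish the prdx2 libraries of these ages overlapped. Between genotypes 5 of 14 markers were called at 5 dpf, 4 of them higher in MZ fish and 1 lower, where 40.7% of all genes were called. At 15 and 30 dpf 0 were called, where 0.891% and 3.30% of all genes were. At 5 dpf cahz was 0.46 higher on the log2 scale and rhag fell by 0.39. At 30 dpf, where hbae3 and hbbe1.2 were higher in MZ fish, alas2 had -0.18, slc4a1a -0.36 and cahz 0.09, none of them called. The median log2 fold change over the 14 markers at 30 dpf was -0.04, where that of all genes was 0.005. The summed CPM of the 14 markers ran from 1567 to 1602 in MZ and from 1478 to 1676 in het fish at 30 dpf. At 15 dpf it ran from 1547 to 1606 in MZ and from 1184 to 1358 in het fish, and at 5 dpf from 1073 to 1140 in MZ and from 1157 to 1367 in het fish. The row with the most counts in that sum was prdx2, a peroxiredoxin that other tissues express too, and the part of red cell number in the globin differences was not tested.

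Genes that make haem and handle iron were compared from lists of fixed membership, and their counts are to be read against the same shares of all genes: 40.7%, 0.891% and 3.30% between genotypes at 5, 15 and 30 dpf, and 19.3% in MZ and 21.5% in het fish from 15 to 30 dpf. Of 20 haem synthesis genes tested, 7 were called between genotypes at 5 dpf, of which MZ fish had 2 higher and 5 lower (median log2 fold change -0.28), and 0 at 15 and 0 at 30 dpf. The highest change was that of ppox, protoporphyrinogen oxidase (1.09 ± 0.29), and the lowest those of hmbsa, hydroxymethylbilane synthase (-0.84 ± 0.14), and slc25a38a, a mitochondrial glycine carrier for haem synthesis (-0.83 ± 0.24). From 15 to 30 dpf 6 were called in MZ fish, 5 higher, and 8 in het fish, 6 higher. Of 13 iron genes tested, 3 were called at 5 dpf (1 higher and 2 lower in MZ fish), 1 at 15 dpf and 0 at 30 dpf between genotypes. Hepcidin, hamp, the hormone that holds iron in stores, was lower in MZ fish at 5 dpf (-1.04 ± 0.22, adjusted p = 0.00161) and higher at 15 dpf (1.24 ± 0.22, adjusted p = 0.0378). The transferrin receptor tfr1b, which takes up iron, was lower in MZ fish at 5 dpf (-0.80 ± 0.11), and fth1b was higher (0.45 ± 0.11).

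Among transcription factors of the erythroid line, gata1a and klf1 rose between 15 and 30 dpf, and the list as a whole did not. Its mean summed CPM went from 277 to 254 in MZ and from 301 to 266 in het fish. The median log2 fold change of the list was 0.12 in MZ and 0.005 in het fish. Of 18 tested, 3 were called from 15 to 30 dpf in MZ fish, all higher, where 19.3% of all genes were called, and 8 in het fish, 4 higher and 4 lower, where 21.5% were. The master factor gata1a was 0.89 ± 0.23 higher in MZ and 1.16 ± 0.29 in het fish on the log2 scale, and klf1, which in mammals drives adult beta globin, was 1.19 ± 0.19 higher in MZ and 1.38 ± 0.16 in het fish. Between genotypes 7 of the 18 were called at 5 dpf, 4 higher and 3 lower, near the 40.7% of all genes, with klf3 lowest (-1.30 ± 0.13), and 0 at 15 and 0 at 30 dpf. Of a list of factors that act on globin switching in mammals, 19 were tested from 15 to 30 dpf. In MZ fish 8 were called, 3 higher and 5 lower, and in het fish 8 were called, 2 higher and 6 lower. Besides klf1 the largest changes were falls of arid3b (-1.17 ± 0.15 in MZ and -1.31 ± 0.12 in het fish) and of hmga2, a chromatin protein of fetal cells in mammals (-1.07 ± 0.22 in MZ and -1.27 ± 0.18 in het fish). These genes are expressed in many tissues, so whole-body values need not be those of red cells. None of the 19 or 20 tested was called between genotypes at 15 or 30 dpf, and 6 of 19 were at 5 dpf.

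The remaining lists are given beside the 40.7% of all genes called between genotypes at 5 dpf, 0.891% at 15 dpf and 3.30% at 30 dpf. Of 24 hypoxia genes tested at 5 dpf 10 were called, 9 of them higher in MZ fish and 1 lower, led by igfbp1b (2.29 ± 0.36) and igfbp1a (1.54 ± 0.11), which bind insulin-like growth factors, and by ndrg1b (1.05 ± 0.16). At 15 dpf 0 of 23 were called, and at 30 dpf 1 of 23, the glucose transporter slc2a1a (-1.28 ± 0.24). Of 12 genes that clear haem and haemoglobin 5 were called at 5 dpf, all higher in MZ fish, and 0 at 15 and 0 at 30 dpf. From 15 to 30 dpf 3 of the 12 were called in MZ fish, 1 higher and 2 lower, where 19.3% of all genes were called. In het fish 4 were called, 3 higher and 1 lower, where 21.5% of all genes were called. The haem scavenger hpx, haemopexin, was higher by 6.64 ± 0.58 in MZ and by 6.47 ± 0.64 in het fish. The MZ rows called lower were blvra (-0.82 ± 0.21) and hmox2a (-0.54 ± 0.17). Of the 15 red cell membrane genes tested 8 were called at 5 dpf, 7 of them higher in MZ fish, and 3 at 30 dpf. Erythropoietin signalling had 4 of 15 called at 5 dpf, 1 of them higher in MZ fish and 3 lower, and 0 of 13 at 15 and at 30 dpf. Of the globins outside the haemoglobin clusters, myoglobin mb (0.84 ± 0.13) and neuroglobin ngb (0.80 ± 0.14) were higher and cytoglobin cygb1 (-0.57 ± 0.10) lower in MZ fish at 5 dpf, with 0 of 4 called at 15 and 0 at 30 dpf.

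Markers of other blood and vessel cells were set beside the globins. At 5 dpf the summed CPM of 8 endothelial markers ran from 73.8 to 83.7 in MZ and from 56.5 to 63.9 in het fish, and 3 of 8 were called, all higher in MZ fish. The leukocyte sum ran from 111 to 122 in MZ and from 129 to 140.2 in het fish, with 2 of 9 called, both lower in MZ fish. The thrombocyte sum ran from 74.9 to 87.2 in MZ and from 97.2 to 108 in het fish, with 1 of 5 called, lower in MZ fish. Each of these counts is below the 40.7% of all genes called at 5 dpf. At 15 and 30 dpf none of these markers was called between genotypes. At 30 dpf the thrombocyte sum ran from 108 to 127 in MZ and from 82.0 to 97.7 in het fish, and the leukocyte sum from 322 to 369 in MZ and from 317 to 319 in het fish. With age, from 15 to 30 dpf, 5 of 5 thrombocyte markers were called higher in MZ fish and 3 of 6 in het fish, among them gp1bb (1.75 in MZ and 2.26 in het fish), where 19.3% of all genes were called in MZ and 21.5% in het fish. Their part in the globin differences was not tested.

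The genes whose pattern over the 18 libraries came closest to the summed larval rows were fundc1 (Pearson r = 0.82), slc25a33 (0.80), ntan1 (0.79), cldnf (0.79) and zgc:77056 (0.79). The measure was the correlation of log2(CPM + 1) over 9284 genes that averaged at least 10 CPM, as a description without a test. All 18 libraries share the age steps, which enter each value. The closest to hbaa1, the only adult row among the 7, were si:ch211-226h8.14 (0.99), cldnd (0.98), si:dkey-37o8.1 (0.97), fgfbp2a (0.97) and zp3.2 (0.97). All 5 had group means of at most 5.01 CPM at 5 and 15 dpf and of at least 25.0 CPM at 30 dpf. Among the members hbae3 and hbbe1.2 ran closest together (0.97), with hbae3 and hbbe1.1 next (0.90), while hbae1 correlated with hbae3 at 0.63 and hbbe2 with hbae3 at -0.68.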

How the data were processed

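RNA from whole zebrafish was sequenced in 18 libraries, 3 for each of 6 groups. The deposited table holds raw counts per gene row with a length; per the submitters' processing notes, cutadapt, STAR 2.5.4b, Subread and featureCounts 1.6.3 were used with build GRCz10. How multi-mapped reads and strand were treated is not given in the sources used here. Of 28870 rows, 1851 had no count. Counts were tested with edgeR 4.0.16 (R 4.3.3): filterByExpr (minimum count 10), TMM, and the quasi-likelihood F test on the 6 libraries compared, or on all 18 for the interaction. P-values were adjusted by Benjamini-Hochberg over every gene tested, and "called" means an adjusted p below 0.05. SE is the log2 fold change over the square root of F, and 95% intervals use 1.96 SE. Folds against 3 counts or fewer per library are bounds. The pipeline was tested on simulated data. DESeq2 1.42.0, other scaling, no filter, a replicate block, a joint fit and leaving out each library were alternatives.

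Members, 13 gene lists (182 of 202 entries matched) and tests were chosen with earlier results of these data known. Beside the members, list genes were named from the erythrocyte markers and, of each list, from the 3 called genes with the largest changes at 1 CPM or more. Not all of those are given here. Replicate pairs differed beyond sampling noise (chi-square per degree of freedom 4.73 to 16.9). Depth of 10178388 to 17141819 counts limits rows near 3 counts. Intervals of shares cover counting error only.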

Additional observations from a re-analysis of the deposited data

Results flagged for a closer look

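The genotype difference of 2 globin rows changed with age in the interaction test over all 18 libraries. For hbbe1.1 (edgeR adjusted p = 0.0136) MZ over het was -0.27 at 5 dpf, -0.21 at 15 dpf and 0.67 at 30 dpf on the log2 scale. For hbae1 (adjusted p = 0.0418) it was 1.15, 1.45 and -0.38 at the same ages. The count of 2 of 6 members equals the 33.3% of all genes called in this test. Among the 6 is hbaa1, which entered the test through its 30 dpf counts alone and could hardly be called. The hbae1 call was lost in 11 of 18 fits that each dropped 1 library and with DESeq2 (adjusted p = 0.108), and the hbbe1.1 call in 1 of 18. The causes were not tested.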

How the results depend on the processing

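The alternatives were scaling by DESeq2's size factors in edgeR (RLE), DESeq2, no filter on low counts, a replicate block and a joint fit of all libraries. Over single members and pairwise comparisons they kept direction and side of the threshold in 164 of 190 values. Another 16 passed it newly, 6 lost it and 4 changed sign. The 4 were hbae3 and hbbe1.1 from 5 to 15 dpf in het fish, at -0.0412 and -0.0391 with the replicate block and -0.0071 and -0.0067 in the joint fit.

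The number of members called between genotypes was 1 (hbae1) at 5 dpf in the joint fit, against 3. At 15 dpf, against 1, it was 2 with DESeq2, 2 with no filter, 0 with the replicate block and 0 in the joint fit. The hbae1 call at 15 dpf had adjusted p = 0.0896 with the block and 0.0719 in the joint fit. From 5 to 15 dpf in MZ fish it was 4 with RLE, 4 with DESeq2, 5 with no filter and 4 with the block, against 2, and in het fish 1 in the joint fit, against 2. In the interaction it was 1 with DESeq2, against 2. Deviations from the group mean, on log2(CPM + 1), correlated between -0.13 and 0.15 for same-numbered libraries of compared groups. Between genotypes at 30 dpf, replicates 2 and 3 had 0.11 and 0.15. No comparison had all its same-numbered pairs above 0.1, the limit set for pairing, so the main tests used no pairing. A clutch or batch shared by same-numbered libraries was not tested further.

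Leaving out a library in turn gave 2 to 4 members called at 5 dpf, 0 to 1 at 15 dpf and 0 to 1 at 30 dpf between genotypes. It gave 2 to 4 from 5 to 15 dpf and 4 to 6 from 15 to 30 dpf in MZ fish, 1 to 2 and 5 to 6 in het fish, and 1 to 2 in the interaction. Some members changed sign. Between genotypes hbaa1 at 30 dpf ranged from -0.065 to 0.22, hbae1 at 30 dpf from -1.10 to 0.28 and hbbe2 at 15 dpf from -0.27 to 0.38. From 5 to 15 dpf in het fish hbae1 ranged from -0.0116 to 0.43, hbae3 from -0.13 to 0.23 and hbbe1.1 from -0.16 to 0.23, and from 15 to 30 dpf hbae1 ranged from -0.87 to 0.076.

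Globin share at 5 dpf was 0.107% in MZ and 0.115% in het fish as TMM-scaled CPM. With rows under other names it was 0.143%, 0.172% and 0.397% in MZ and 0.138%, 0.162% and 0.432% in het fish at 5, 15 and 30 dpf. The adult share with those rows was 0.0029% in MZ fish at 15 dpf, 0.0299% and 0.0061% in het fish at 5 and 15 dpf, and 56.1% in MZ fish at 30 dpf. Without hbz, HBZ and hbbe2 it was 0.0035% and 75.3% in MZ fish at 15 and 30 dpf, and 0.0327%, 0.0075% and 83.7% in het fish at 5, 15 and 30 dpf. Over the most abundant row of each kind it was 65.5% in MZ and 75.3% in het fish at 30 dpf.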
